A study of Mus musculus with 2 samples.

Results

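The genes described here were 3 neurotrophins (Bdnf, Ntf3 and Ntf5), 3 neurotrophin receptors (Ntrk2, Ntrk3 and Ngfr), the related growth factor Gdnf and its signalling receptor Ret. They were found by gene symbol, and all 8 had a row among the 43346 mouse gene rows of each table. The RNA came from the facial prominence, the swellings that build the face, of B6NCrl mouse embryos of 12.5 days. Replicate 1 was a pool of 120 embryos and replicate 2 a pool of 88, each with both sexes, and no allele or treatment was labelled. There was 1 group of 2 libraries and no contrast between conditions, so levels and the spread between the pools are described without a test.

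Neurotrophins are secreted as precursors and act as dimers on Trk receptor tyrosine kinases. Brain-derived neurotrophic factor (Bdnf) and neurotrophin-4 (Ntf5) bind TrkB, the product of Ntrk2, and neurotrophin-3 (Ntf3) binds mainly TrkC, the product of Ntrk3. The p75 receptor, encoded by Ngfr, lacks a kinase and binds all neurotrophins and their precursors. GDNF binds a membrane-anchored co-receptor of the GFRα family, and the complex activates the kinase Ret. In the developing face these factors are known as survival and guidance cues for the sensory axons of the trigeminal ganglion, made by the skin and mesenchyme that the axons reach, and p75 is a classic surface marker of neural crest cells and early glia.

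Summed expected counts, the estimated reads per gene, were 27890681 in replicate 1 and 39969716 in replicate 2. Their counts differed by more than counting noise, with a chi-square of 5.87 per gene over 15051 genes, so they were counted as 2 libraries. Of the markers of the labelled tissue, all 6 mesenchyme genes (Prrx1, Prrx2, Msx1, Pdgfra, Twist1 and Alx1) and all 5 epithelial genes reached 10 TPM in both libraries. TPM divides a count by transcript length, scales each library to the same total, and allows levels of different genes to be compared. Each TPM was deposited with an interval that covers counting and read assignment within a library, at a level the tables do not state. In bulk tissue, fewer cells of a type and less RNA per cell cannot be told apart.

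Levels of the 8 genes spanned from 0.58 to 28.8 TPM as means, with Ngfr and Ntf3 at the top and Gdnf at the bottom. A level of 1 TPM or more in both libraries was reached by 7 of 8, against 61.8% of 21474 protein-coding genes. A level of 10 TPM in both was reached by 3 (Ngfr, Ntf3 and Ntrk2), against 41.7% of protein-coding genes. Their median of 4.32 TPM lay beside 5.24 TPM over all protein-coding genes. In all 7 neighbouring steps of the order Ngfr, Ntf3, Ntrk2, Bdnf, Ntf5, Ntrk3, Ret and Gdnf, the values of both libraries lay apart, but the step from Bdnf to Ntf5 was only 1.05-fold and their deposited intervals overlapped in each library. Without division by length, 5 genes changed place, and Ntrk2 stood above Ntf3.

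**Figure D1:**
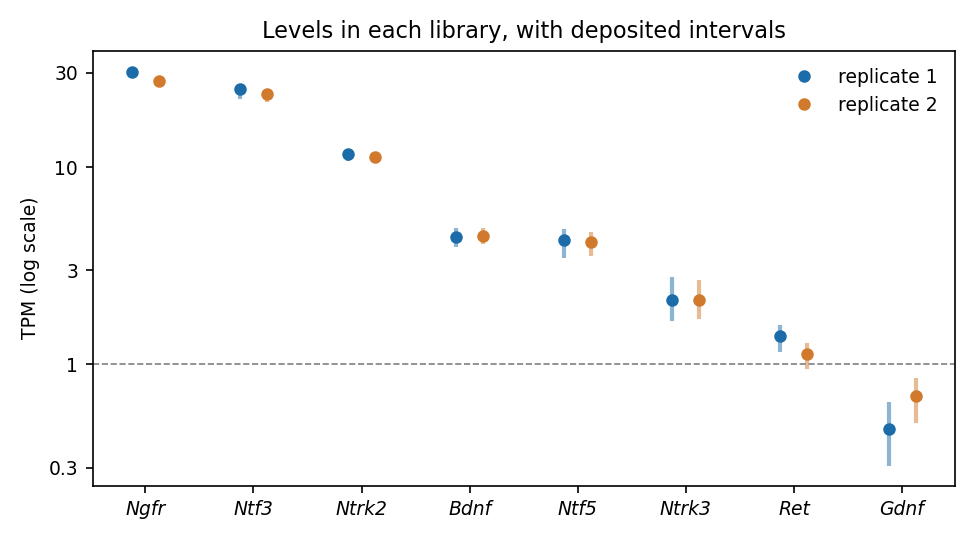
TPM of each gene in replicate 1 and replicate 2 (points, log axis) with the deposited interval of each estimate (bars), ordered by mean; the dashed line marks 1 TPM. Ngfr and Ntf3 stand near 30 TPM and near 24 TPM, and only Gdnf lies under the line.

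Among the ligands, Ntf3 was the most abundant. Ntf3 (ENSMUSG00000049107, chromosome 6, 126101412 to 126166910, minus strand, GRCm38) had 24.75 TPM in replicate 1 and 23.51 TPM in replicate 2, from 551 and 736 counts, or 24.1 ± 0.877 TPM (SD, n = 2). Its level exceeded that of 71.4% of protein-coding genes. Bdnf (ENSMUSG00000048482, chromosome 2, 109674700 to 109727007, plus strand) had 4.40 and 4.46 TPM, from 298 and 429 counts, or 4.43 ± 0.0424 TPM. Ntf5 (ENSMUSG00000074121, chromosome 7, 45413695 to 45417179, plus strand) had 4.27 and 4.16 TPM, from 139 and 192 counts, or 4.22 ± 0.0778 TPM. For these 3 ligands the libraries lay within 1.05-fold of each other, and their deposited intervals overlapped. Ntf3 stood 5.45-fold above Bdnf (log2 ratio of Bdnf to Ntf3 -2.45 ± 0.07) and 5.72-fold above Ntf5 (2.52 ± 0.03). The log2 ratio of Bdnf to Ntf3 was -0.83 when counts were left undivided by length.

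Gdnf (ENSMUSG00000022144, chromosome 15, 7810846 to 7837575, plus strand) was the lowest of the 8. It had 0.47 TPM from 28 counts in replicate 1 and 0.69 TPM from 58 counts in replicate 2, and its intervals were 0.306 to 0.645 and 0.507 to 0.854 TPM. Replicate 2 was 1.47-fold higher, the widest relative gap among the 8 genes, and the intervals overlapped. At these counts the gene was detected in both pools, but a difference between them was not resolved.

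The p75 receptor gene Ngfr (ENSMUSG00000000120, chromosome 11, 95568818 to 95587735, minus strand) had 30.44 TPM from 1780 counts in replicate 1 and 27.19 TPM from 2255 counts in replicate 2, or 28.8 ± 2.30 TPM. It was the only one of the 8 whose deposited intervals, 28.1 to 30.8 and 25.4 to 27.6 TPM, did not overlap between the libraries, which was also so for 10.7% of the 15723 mouse genes with a mean of 1 TPM or more. Ntrk2 (ENSMUSG00000055254, chromosome 13, 58806569 to 59133970, plus strand) had 11.68 TPM from 1455 counts and 11.25 TPM from 1971 counts, or 11.5 ± 0.304 TPM. Ntrk3 (ENSMUSG00000059146, chromosome 7, 78175959 to 78738012, minus strand) was lower, with 2.11 TPM from 83 counts and 2.13 TPM from 117 counts, or 2.12 ± 0.0141 TPM. As whole genes, Ntrk2 exceeded Ntrk3 5.41-fold (log2 ratio 2.43 ± 0.05). Ngfr exceeded Ntrk3 13.6-fold (3.76 ± 0.12) and Ntrk2 2.51-fold (1.33 ± 0.08), and without division by length the latter log2 ratio was 0.24.

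Ret (ENSMUSG00000030110, chromosome 6, 118151745 to 118197718, minus strand) had 1.39 TPM from 163 counts in replicate 1 and 1.13 TPM from 191 counts in replicate 2, or 1.26 ± 0.184 TPM. Replicate 1 was 1.23-fold higher, and the deposited intervals of 1.15 to 1.58 and 0.951 to 1.28 TPM overlapped. Ret stood above 38.6% of protein-coding genes and Gdnf above 33.9%.

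At the transcript level, Ntrk2 and Ntrk3 were made up differently. Both genes give full-length receptors with a kinase and truncated receptors that keep the ligand-binding part and the membrane anchor. A truncated form binds its ligand and has no kinase of its own. Here a transcript was called full-length when its coding sequence ran to the last coding exon of the gene's longest coding transcript, and truncated when it ended in an earlier exon with its own stop codon. For Ntrk2 the tables held 1 transcript of each kind, a full-length one with 821 codons and a truncated one with 476 codons, which share 1393 coding bases. The bases at which they part are shown because they define the form that held most of the Ntrk2 signal. Lower case marks the last 30 shared bases, and capitals mark bases of that form alone, up to the stop codon of the truncated form and for the first 60 of the full-length form. Coordinates here and in what follows are those of the bases in capitals in GRCm38, and the bases come from the GENCODE M21 transcripts.
Ntrk2 truncated (ENSMUST00000109838, chr13:58932023-58932060, plus strand): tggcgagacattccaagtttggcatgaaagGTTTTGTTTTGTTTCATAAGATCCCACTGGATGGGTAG
Ntrk2 full-length (ENSMUST00000079828, chr13:58985802-58985861, plus strand): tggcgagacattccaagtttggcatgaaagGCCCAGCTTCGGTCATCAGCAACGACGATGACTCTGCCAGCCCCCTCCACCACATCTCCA

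The truncated Ntrk2 transcript, with only 38 coding bases of its own (stop codon included), carried most of the gene's level. It had 9.95 TPM in replicate 1 (interval 9.05 to 10.2) and 10.02 TPM in replicate 2 (9.30 to 10.3). The full-length transcript had 1.73 TPM (1.41 to 1.97) and 1.22 TPM (1.01 to 1.40). Truncated Ntrk2 therefore made up 85.2% and 89.1% of the gene's TPM, or 87.2 ± 2.80% (n = 2), and the intervals of the 2 forms lay far apart in both libraries. The full-length form drew 254.8 and 256.08 of the 1455 and 1971 counts. The last exons of the truncated form (58932023 to 58937027) and of the full-length form (59128168 to 59133970) hold long untranslated stretches, so reads of these stretches also enter the split.

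Ntrk3 had 6 transcripts in the tables: 3 full-length, 1 truncated and 2 without a coding sequence. The truncated form, with 612 codons, parts from the 825-codon full-length form after 1585 shared coding bases and ends with 254 coding bases of its own, set out with the same use of capitals.
Ntrk3 truncated (ENSMUST00000039438, chr7:78302629-78304426, minus strand, over 2 exons): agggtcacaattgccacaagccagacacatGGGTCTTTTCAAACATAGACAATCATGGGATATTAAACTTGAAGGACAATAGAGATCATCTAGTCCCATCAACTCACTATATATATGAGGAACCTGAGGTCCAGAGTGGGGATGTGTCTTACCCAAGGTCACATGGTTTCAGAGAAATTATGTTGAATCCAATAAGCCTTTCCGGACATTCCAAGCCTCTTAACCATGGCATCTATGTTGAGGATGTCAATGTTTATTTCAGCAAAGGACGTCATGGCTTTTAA
Ntrk3 full-length, 825 codons (ENSMUST00000039431, chr7:78260355-78260414, minus strand): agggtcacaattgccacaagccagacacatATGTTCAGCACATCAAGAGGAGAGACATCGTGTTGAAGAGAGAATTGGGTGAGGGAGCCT
The other full-length forms differ from that one by an insert in the kinase, of 42 coding bases in the 839-codon form and 117 in the 864-codon form, and the longer insert holds the shorter one whole. Kinase inserts are a known feature of TrkC. Capitals mark the inserted bases and lower case the 30 bases on each side.
Ntrk3, 839 codons (ENSMUST00000193002, insert, chr7:78204103-78204144, minus strand): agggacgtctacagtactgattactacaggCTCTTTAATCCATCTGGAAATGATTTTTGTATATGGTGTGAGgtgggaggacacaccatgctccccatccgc
Ntrk3, 864 codons (ENSMUST00000195262, insert over 2 exons within chr7:78204103-78229561, minus strand): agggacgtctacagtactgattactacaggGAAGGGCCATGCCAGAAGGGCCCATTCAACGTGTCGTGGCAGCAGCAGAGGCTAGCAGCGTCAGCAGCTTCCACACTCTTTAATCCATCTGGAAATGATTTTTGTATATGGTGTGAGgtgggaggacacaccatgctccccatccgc

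In contrast to Ntrk2, full-length forms made up most of Ntrk3. The 3 together had 1.36 TPM in replicate 1 and 1.33 TPM in replicate 2, which was 64.8% and 62.4% of the gene, or 63.6 ± 1.64%. Truncated Ntrk3 had 0.30 and 0.29 TPM, or 14.0 ± 0.474% of the gene. The noncoding transcripts had the other 22.4 ± 2.12%, nearly all from ENSMUST00000151885 at 0.41 and 0.51 TPM. In GENCODE M21 its last exon (78302323 to 78302747) lies within the last exon of the truncated form (78300690 to 78302747). Its intervals, 0.0222 to 0.895 and 0.120 to 0.982 TPM, overlapped those of the truncated form in both libraries. The split between the truncated and noncoding shares was therefore not resolved. Among coding transcripts alone the full-length share was 82.0%, which leaves out any truncated reads assigned to the noncoding transcripts. These shares rest on 64.05 and 90.96 full-length counts and 11.79 and 16.28 truncated counts. Which full-length form was present was not resolved. The 864-codon form was at 0.38 TPM in replicate 1 and 0 TPM in replicate 2, and the 839-codon form at 0.81 and 0.91 TPM, yet the intervals of both reached from nearly 0 to between 0.845 and 1.19 TPM. The 825-codon form had 0.17 and 0.42 TPM with overlapping intervals. The table gave the 825-codon transcript 3300 bases, while the later GENCODE M21 model is 19703 bases long, so reads from bases that only the later model holds are not in these counts. The truncated transcript had 2337 bases in the table and 3977 in GENCODE M21, and how the models affect the class shares and ratios was not tested.

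By class, the 5.41-fold gap between the whole genes lay in the truncated forms. Truncated Ntrk2 exceeded truncated Ntrk3 33.9-fold (log2 ratio 5.08 ± 0.04). The size of that fold is uncertain, because the intervals of truncated Ntrk3 were wide, 0.0803 to 0.623 and 0.0814 to 0.587 TPM. The split of truncated Ntrk3 from the noncoding transcript ENSMUST00000151885 was also not resolved. The SD covers only the spread between the libraries. Full-length Ntrk2, at 1.48 ± 0.361 TPM, and full-length Ntrk3, at 1.35 ± 0.0212 TPM, differed by less than the spread between the libraries: the log2 ratio was 0.35 in replicate 1 and -0.12 in replicate 2. Undivided by length the ratio was 1.74, and the Ntrk2 model is the longer one. This comparison by class was added after the values had been seen.

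**Figure D2:**
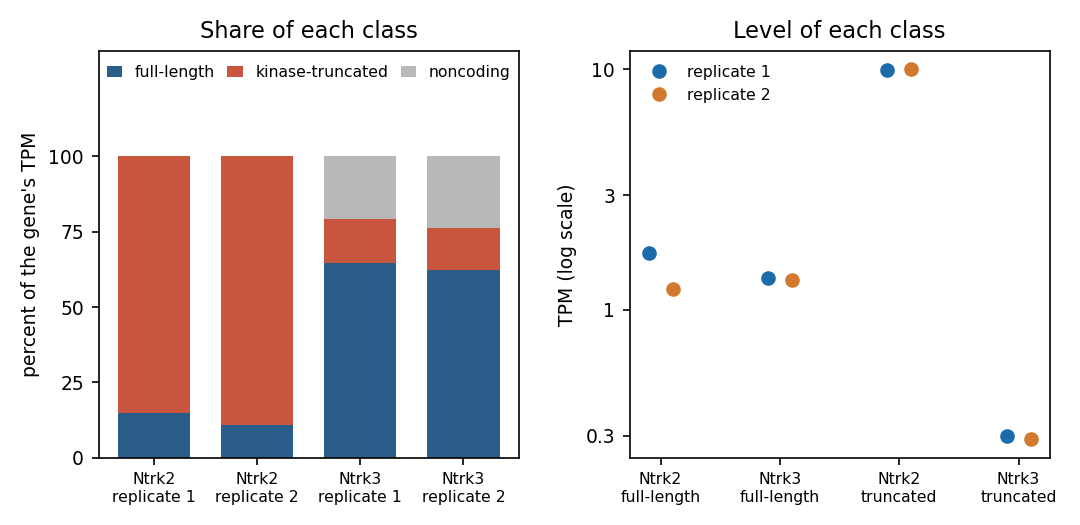
Left, percent of the TPM of Ntrk2 and Ntrk3 held by full-length, kinase-truncated and noncoding transcripts in each library; right, TPM of the full-length and truncated classes in each library (log axis). Truncated forms hold 85.2% and 89.1% of Ntrk2 but 14.3% and 13.6% of Ntrk3, and the full-length classes of the 2 genes lie at similar levels.

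Ret gives 2 receptors with different C-terminal tails, known as the short and the long form, which recruit partly different adaptors. Ret-202, with 1073 codons, and Ret-201, with 1115, share 3190 coding bases and then part; capitals mark each form's own bases to its stop codon.
Ret-202 (short form, chr6:118155256-118155287, minus strand): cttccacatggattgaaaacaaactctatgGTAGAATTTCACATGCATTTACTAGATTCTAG
Ret-201 (long form, chr6:118153853-118154010, minus strand): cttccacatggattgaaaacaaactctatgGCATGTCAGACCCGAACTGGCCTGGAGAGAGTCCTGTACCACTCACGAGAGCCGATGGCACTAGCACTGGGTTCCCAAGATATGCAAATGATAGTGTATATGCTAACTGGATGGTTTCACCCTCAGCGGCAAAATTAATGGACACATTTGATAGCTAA
The short form held 58.3% of the TPM of Ret in replicate 1 and 66.4% in replicate 2, at 0.81 and 0.75 TPM. The long form held the other 41.7% and 33.6%, at 0.58 and 0.38 TPM. The intervals of the 2 forms overlapped, with 0.508 to 1.10 TPM against 0.232 to 0.914 in the first library and 0.505 to 1.01 against 0.0834 to 0.640 in the second, so neither form was resolved as the higher. The table gave the short form 7341 bases and the long form 6064, against 4497 and 5456 in GENCODE M21, and these lengths enter the TPM.

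The transcripts of Ntf3 differ at the start of the precursor. One form has 271 codons and begins 39 coding bases upstream of the start codon of the other, which has 258 codons. These bases are in capitals and the shared start in lower case.
Ntf3, 271 codons (ENSMUST00000112244, minus strand, over 2 exons within chr6:126102503-126164747): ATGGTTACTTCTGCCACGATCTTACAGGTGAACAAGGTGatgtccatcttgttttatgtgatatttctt
The 2 forms were about even, and their order turned between the libraries. The 258-codon form had 11.98 TPM in replicate 1 and 13.77 TPM in replicate 2, which was 48.4% and 58.6% of the gene, and the 271-codon form had 12.77 and 9.74 TPM. Their intervals overlapped in both libraries.

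Bdnf transcripts join 1 of several first exons to a common last exon (109723382 to 109727007) that holds the mature protein. The tables held 11 Bdnf transcripts with 9 different starts, and 6 of them were at 0 TPM in both libraries. Bdnf-205, whose first exon (109693563 to 109693909) is the sixth of these starts along the gene, had 4.03 TPM in replicate 1 and 3.18 TPM in replicate 2, or 91.6% and 71.5% of the gene. Bdnf-209 (first exon 109692436 to 109692774) followed with 0.31 and 0.88 TPM, or 7.05% and 19.8%, and Bdnf-201 (first exon 109674700 to 109675339) had 0.06 and 0.23 TPM. The intervals of Bdnf-205, 2.63 to 3.88 and 2.13 to 3.30 TPM, lay above those of Bdnf-209, 0.0601 to 0.631 and 0.431 to 1.20 TPM, in both libraries. In replicate 1 the Bdnf-205 value was itself above its interval, which surrounds the posterior mean of 3.26 TPM. By posterior mean TPM, Bdnf-205 held 73.8% of the gene in replicate 1 and 60.5% in replicate 2. An antisense gene, Gm45346, shares 896 exonic bases with Bdnf in GENCODE M21 and was not measured separately, so its reads and those of Bdnf cannot be told apart. For the other 7 genes no exonic overlap with another gene was annotated, and for all 8 the expected counts were whole numbers in both libraries, as counts with no read split between genes are. Ngfr, Ntf5 and Gdnf had 1 transcript each.

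Ligands and receptors were also set against each other as 12 pairs within each library. The call required a mean log2 ratio beyond 1 in either direction and the same sign in both libraries. Of the 12 pairs, 11 were called. How often pairs of other genes pass this rule was not measured, so the count only describes these pairs. Ntf3 stood 11.4-fold above its receptor gene Ntrk3 (log2 ratio 3.51 ± 0.06; 3.55 and 3.46 in the libraries). The ligands of TrkB stood below their receptor gene taken whole, Bdnf 2.59-fold (-1.37 ± 0.05) and Ntf5 2.72-fold (-1.44 ± 0.01) under Ntrk2. Against full-length Ntrk2 alone, at 1.73 and 1.22 TPM, the order turned. Bdnf (4.40 and 4.46 TPM) and Ntf5 (4.27 and 4.16 TPM) were above it in both libraries. Of these 3 neurotrophins, Ntf3 was the one that exceeded the whole gene of its main Trk receptor.

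Gdnf lay 35.9-fold below its co-receptor gene Gfra1 (log2 ratio -5.16 ± 0.48), which had 21.35 and 19.54 TPM. Ret lay 16.3-fold below Gfra1 (-4.03 ± 0.12), in both libraries. Gdnf was 2.20-fold below Ret (-1.14 ± 0.60), with -1.56 in replicate 1 and -0.71 in replicate 2, so that call rested on replicate 1, and with a pseudocount of 1 TPM the ratio was -0.52. Sort1, which encodes sortilin, the partner of p75 in binding precursors, lay 1.67-fold under Ngfr (-0.74 ± 0.0018) and was the pair not called.

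**Figure D3:**
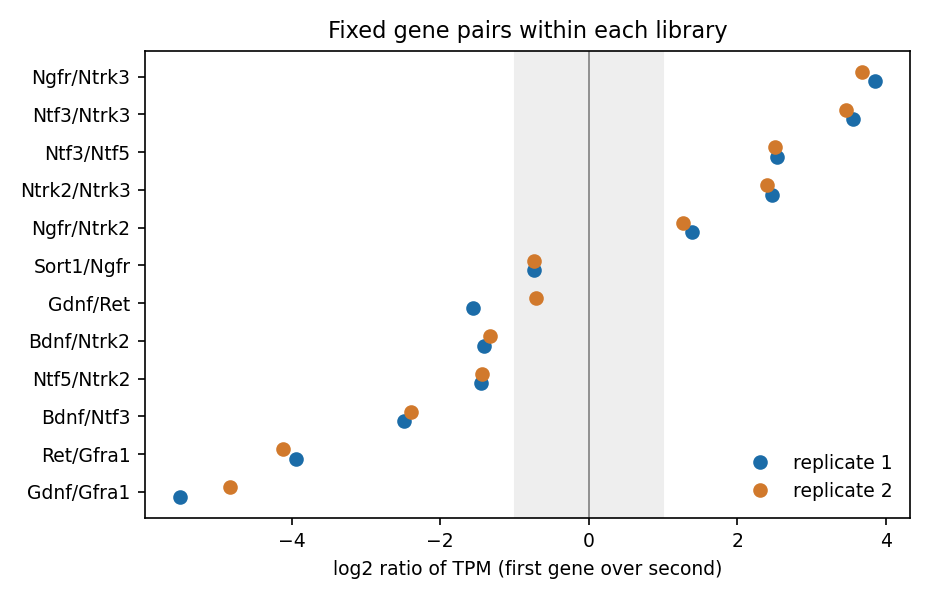
log2 ratio of TPM of the first gene over the second for each of 12 pairs, in replicate 1 and replicate 2; the shaded band spans -1 to 1. Ntf3 and Ngfr lie far above Ntrk3, Gdnf and Ret far below Gfra1, and only the pair Gdnf and Ret has one library inside and one outside the band, beside Sort1 and Ngfr with both inside.

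The wider pathway was described by a list of 58 genes in 7 roles, of which 54 had 1 TPM or more in both libraries, beside 61.8% of all protein-coding genes. The counts by role are to be read against that share. Among 7 ligands, 5 reached that level, Ntf3 was highest and Pspn, the gene of persephin, was not detected, with 2 and 1 counts. Nrtn, the gene of neurturin, had 9.04 and 9.78 TPM, so Gdnf was lower than Nrtn and also than Artn, the gene of artemin, at 2.80 and 2.02 TPM. All 9 listed receptor and co-receptor genes reached 1 TPM, from Ncam1, an adhesion molecule that also binds GDNF, at 58.5 ± 0.948 TPM down to Ret. All 6 genes of the sortilin family and relatives did so, between Nradd, a relative of p75, at 41.9 ± 1.28 TPM and Sorcs3 at 1.55 ± 0.134 TPM.

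Of 6 proteases that can process neurotrophin precursors, 5 reached 1 TPM. Plat, tissue plasminogen activator, was highest at 41.3 ± 2.16 TPM, and Mmp7 had 0 counts, for which the limit from a count of 3 was 0.177 and 0.125 TPM (counting error only). All 8 genes for partners of p75 reached 1 TPM, led by Maged1 at 664 ± 4.31 TPM, with Rtn4r lowest at 2.69 ± 0.148 TPM. Of 17 adaptors, 16 did so, with Grb10 highest at 504 ± 30.1 TPM and Shc3, an adaptor found mainly in neurons, lowest at 1.27 and 0.65 TPM. All 5 listed regulators of Trk and Ret signalling, the role labelled feedback inhibitors, reached 1 TPM. They ran from Spry2 at 43.1 ± 1.45 TPM to Islr2 at 5.33 and 3.70 TPM, and inhibition by these genes was not tested. Many of the adaptors and proteases serve other receptors too. The list's median was 10.7 TPM, beside 5.24 TPM over all protein-coding genes.

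**Figure D4:**
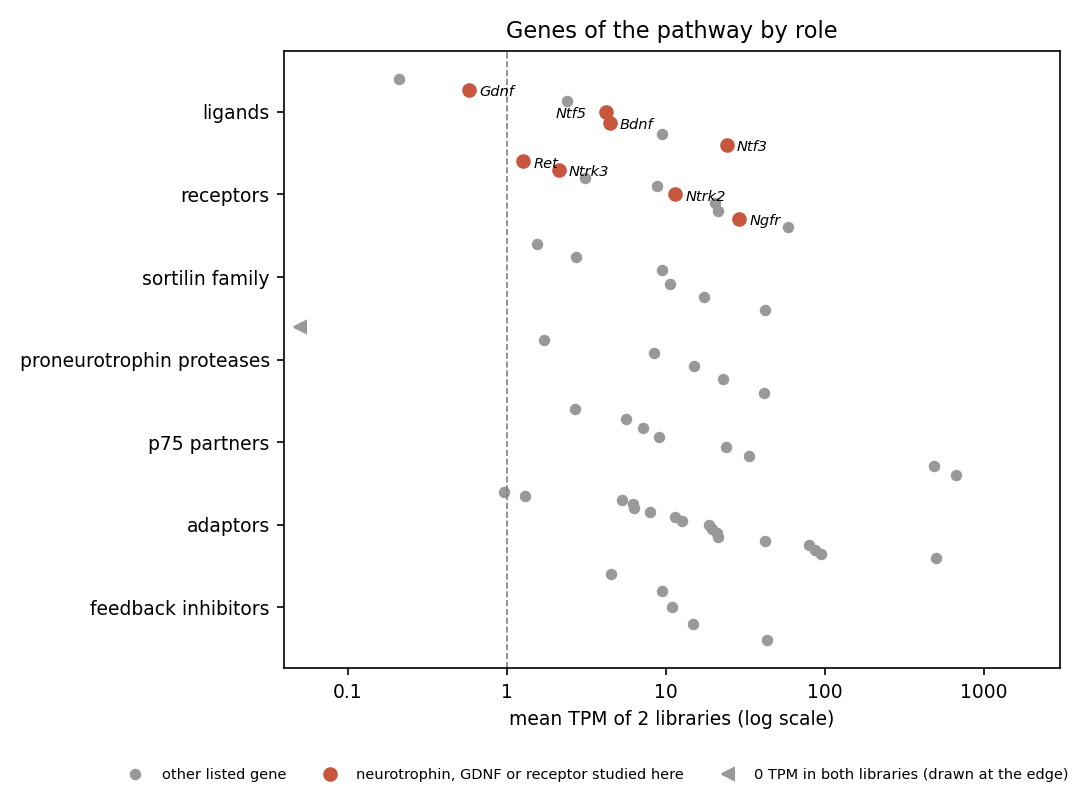
Mean TPM of 2 libraries (log axis) for the 58 listed genes by role, with the 8 genes described here in red and the others in grey; the dashed line marks 1 TPM and a triangle marks a gene at 0. Ret and Ntrk3 are the lowest receptor genes, Ntf3 is the highest ligand, and Maged1, Bex3 and Grb10 stand highest of the list.

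Between the pools the 8 genes differed little. On the log2 scale of TPM with a pseudocount of 1, replicate 2 minus replicate 1, the differences ran from -0.17 for Ret and -0.16 for Ngfr to 0.20 for Gdnf. None of the 8 passed 2-fold with that pseudocount or without one, where 1.5% of the 15723 mouse genes with a mean of 1 TPM or more did so (0.757% higher and 0.744% lower in replicate 2). Gdnf was under that minimum. The median size of the difference was 0.06 over the 8 and 0.09 over those 15723 genes. Among the 8, 5 genes (Ngfr, Ntf3, Ntf5, Ntrk2 and Ret) were lower in replicate 2 by any amount, beside 49.6% of all such genes.

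Several marker lists differed between the pools. The counts by direction are to be read beside the 49.6% of mouse genes with a mean of 1 TPM or more that were lower in replicate 2. All 9 genes of the general and sensory neuron list (Tubb3, Nefl, Stmn2, Elavl4, Isl1, Prph, Pou4f1, Neurog1 and Neurog2) were lower in replicate 2, with a median log2 difference of -0.33 and a summed level of 544.88 TPM against 420.37, and none was at 0. Of the 7 glial markers, 6 were lower, with sums of 217.85 and 177.77 TPM, mostly from Fabp7. Of the 9 listed receptor genes 8 were lower in replicate 2 by any amount, with Ngfr 1.12-fold lower, and Ntrk3 was the exception. The receptor differences were small, with a median log2 difference of -0.12 and only -0.03 for Ncam1 and -0.05 for Ntrk2. Autonomic neurons are among the cells known to carry Ret. Of their 5 markers 4 were higher in replicate 2, and the 5 summed to 11.66 TPM in replicate 1 and 12.16 in replicate 2, with 2 of 5 at 1 TPM in both. Of the 5 markers of motor and central neurons 4 were lower in replicate 2, among them Mnx1 on only 3 and 2 counts, and Chat was at 0. Their sums were 26.88 and 22.49 TPM, mostly from Emx2 at 19.65 and 17.08 TPM. All 3 markers of skeletal muscle were higher in replicate 2, with sums of 255.25 and 301.38 TPM and a median log2 difference of 0.25. Of the 6 mesenchyme markers 3 were higher and 3 lower in replicate 2, with Alx1 at 91.94 and 134.2 TPM. Of the 5 epithelial markers 4 were higher and 1 lower, with Krt15 at 60.81 and 76.77 TPM. The part of these cell types in the differences of Ngfr and Ret was not tested.

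**Figure D5:**
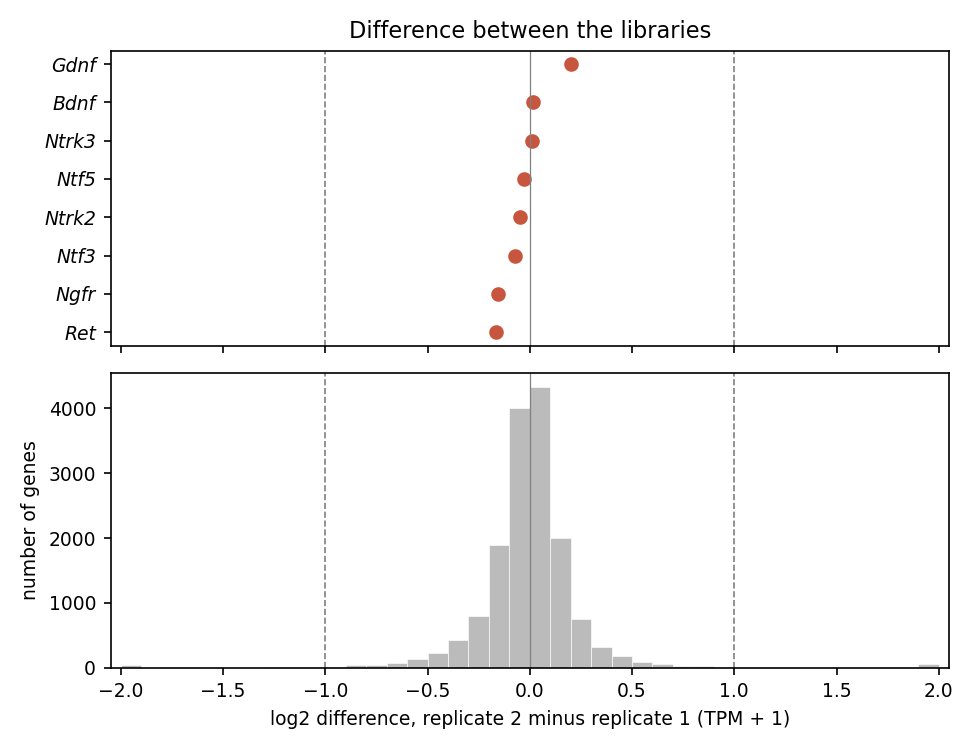
Top, log2 difference of TPM (pseudocount of 1), replicate 2 minus replicate 1, for each of the 8 genes; bottom, the number of mouse genes with a mean of 1 TPM or more at each difference, where the end bars also hold genes beyond the axis. Dashed lines mark 2-fold, and all 8 genes lie between -0.17 and 0.20.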

How the data were processed

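Total RNA above 200 bases was sequenced from 10 ng per library with ERCC spike-ins, per the labels. The deposited expected counts, TPM and FPKM per gene and transcript refer to mm10 with GENCODE M4, per the file headers and accompanying notes; no source used here names the aligner or quantifier. The deposited interval bounds are non-negative signal values around a posterior mean TPM, with a level that the headers do not give, and the deposited isoform percent values were recomputed from TPM. Whether strand was kept is not stated. Names, coordinates and coding sequences came from GENCODE M21 (GRCm38), the same build. The 8 genes, the lists and the pairs were chosen with earlier results of these data known. Of these lists, 2 genes and 1 pair are not reported here. Every one of the 8 was named. Of the pathway list, genes of the pairs, the highest and lowest of each role and undetected genes were named, plus Nrtn, Artn and Bex3, chosen after their values were seen. Transcripts at 5% or more of a gene in either library were named. No genes of like pattern were sought, since 2 libraries give 1 difference per gene. Values are mean ± SD (n = 2). Python 3.11.15, numpy 2.4.6, pandas 2.3.3, matplotlib 3.10.9 and, for TMM factors as an alternative, edgeR 4.0.16 in R 4.3.3 were used, with counts rounded to whole numbers. The difference and its 2-fold rule were tested on simulated data with counting noise alone, for genes at a mean of 5 TPM or more. That checked the calculation and not the spread between these libraries, which exceeded counting noise. Alternatives covered the posterior mean TPM, counts not divided by length, pseudocounts, minimums and each library alone.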

Additional observations from a re-analysis of the deposited data

How the results depend on the processing

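With 2 libraries, leaving out one says nothing on the stability of a level. It changed the call of 1 of 12 pairs, Gdnf and Ret (-0.71 without replicate 1). With posterior mean TPM no call changed among the 12 pairs. In counts not divided by length, 5 of the 8 genes changed place, and the ratios of Ngfr to Ntrk2 (0.24) and Bdnf to Ntf3 (-0.83) fell under the threshold. A pseudocount of 1 TPM did the same to Gdnf and Ret (-0.52). The split of Ntrk2 moved by less than the spread under each alternative. For Ntrk3 the full-length share was 77.5% and the noncoding share 8.48% of expected counts. With posterior mean TPM its full-length share was 60.7% and its truncated share 14.9%. With coding transcripts alone these shares were 82.0% and 18.0%. The background of genes past 2-fold was 0.837% without a filter, 0.468% at a mean of 5 TPM or more and 2.49% with a pseudocount of 0.1 TPM. Leaving the spike-ins out of the TPM total moved 5 of the 8 levels by more than the spread, all upward, and posterior mean TPM moved 3. Depth limits Gdnf (28 and 58 counts), Shc3 (32 and 23 counts), the forms of Ntrk3 and the lesser forms of Bdnf. No paired analysis was possible because there is 1 group.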
